A study of Mus musculus with 7 samples.

Results

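The genes described here encode the proteins of the cytosolic ribosome. They were chosen by name alone: Rpl or Rps followed by a number and an optional a, x or l, together with Rplp0, Rplp1, Rplp2 and Rpsa, and without the Rps6k kinase genes. Of 83 matching symbols, 2 (Rps4l and Rpl6l) are annotated as pseudogenes, which left 81 of the 21627 protein-coding genes on the autosomes and the X chromosome. Of these, 50 encode large-subunit (Rpl) and 31 small-subunit (Rps) proteins. They are short genes, with a median length of 3175 bp (range 592 to 11774 bp), against 17330 bp over all protein-coding genes. A longer gene holds more regions, so shares over all genes are set beside those over the 7741 protein-coding genes of at most 10 kb, called short genes here. Only 1 ribosomal protein gene was longer than 10 kb.

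Replication origins were mapped by sequencing short nascent strands, the newly made DNA pieces that flank a fired origin, in mouse embryonic stem cells (mESCs). APH denotes 2 libraries of cells exposed for 2.5 h to aphidicolin, which slows replication forks by blocking DNA polymerases, at 0.5 µM. CDC6 denotes 2 libraries in which a Tet-controlled CDC6 transgene, whose product helps load the replicative helicase, was induced over 30 h by doxycycline at 1 µg/ml. WT denotes 2 untreated libraries. The APH, CDC6 and WT 2 libraries all came from mESCs of the TetO-CDC6 mouse model, so the APH and WT 2 cells carry the transgene as well. WT 1 came from other mESCs with the genotype given as WT, grown in a different medium. Whether both libraries of a condition had their own culture is not stated in the labels; p-values here therefore reflect the spread among these 6 samples alone, and that spread may be technical. Induction of CDC6 was not measured.

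The deposited origin lists, 1 per condition, held 31653 APH, 31384 CDC6 and 20178 WT origins. The 6 libraries had 71435 to 94747 MACS peaks each, the most in WT 1, all called against 1 control. A second deposited list of each library went against its label: all 31653 APH origins are rows of the second list labelled CDC6 1, all 31384 CDC6 origins are rows of that labelled CDC6 2, and all 20178 WT origins are rows of that labelled APH 1. The condition lists and the MACS lists were used as labelled.

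Ribosomal proteins line and stabilise the ribosomal RNAs of both subunits, and dividing cells make them in large and matched amounts. Their genes are among the most highly transcribed in growing cells. Most are short, with CpG-rich promoters, and their mRNAs usually begin with a pyrimidine tract, the terminal oligopyrimidine motif through which mTOR signalling adjusts translation. Mammalian origins are often found at the start sites of active genes and in GC-rich DNA. Stem cells license many more origins than they use, and slowed forks bring some of the others into use.

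The promoters of 5 genes are shown because they mark the extremes of the data: 3 lay under an origin in every list, and 2 belonged to genes with no MACS peak within 1 kb in any library. Each is 200 bases, 5′ to 3′ on the coding strand, with 170 bases before the annotated start (RefSeq sequence, GRCm38.p6). Capitals mark CCGGAAG, a core recognised by ETS-family factors, and a run of at least 5 pyrimidines (C or T) over the start. Rps19 is at chr7:24884422-24884621 (plus strand), Rps6 at chr4:86857338-86857537 (minus strand) and Rpl28 at chr7:4792795-4792994 (plus strand). The genes with no peak are Rpl10 at chrX:74270646-74270845 (plus strand) and Rpl10l at chr12:66284372-66284571 (minus strand).
Rps19: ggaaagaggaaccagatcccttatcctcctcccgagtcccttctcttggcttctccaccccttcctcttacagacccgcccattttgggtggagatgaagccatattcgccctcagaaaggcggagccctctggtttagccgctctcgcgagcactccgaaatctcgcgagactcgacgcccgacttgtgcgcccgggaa
Rps6: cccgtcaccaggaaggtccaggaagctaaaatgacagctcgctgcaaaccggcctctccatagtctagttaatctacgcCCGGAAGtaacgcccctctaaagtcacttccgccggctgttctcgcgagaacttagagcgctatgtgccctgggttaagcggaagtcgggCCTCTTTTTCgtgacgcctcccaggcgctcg
Rpl28: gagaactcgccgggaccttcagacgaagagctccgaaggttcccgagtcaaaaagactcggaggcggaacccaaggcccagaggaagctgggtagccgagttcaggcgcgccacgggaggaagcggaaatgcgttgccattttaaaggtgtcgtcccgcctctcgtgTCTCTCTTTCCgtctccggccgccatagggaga
Rpl10: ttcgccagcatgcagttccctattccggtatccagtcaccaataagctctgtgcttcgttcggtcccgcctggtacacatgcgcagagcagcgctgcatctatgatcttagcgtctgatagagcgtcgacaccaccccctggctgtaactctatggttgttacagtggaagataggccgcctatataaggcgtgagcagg
Rpl10l: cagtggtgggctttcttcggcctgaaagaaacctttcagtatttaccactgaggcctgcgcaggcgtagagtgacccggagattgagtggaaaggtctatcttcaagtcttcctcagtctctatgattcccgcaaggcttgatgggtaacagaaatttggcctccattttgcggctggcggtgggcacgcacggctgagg
The Rps6 promoter holds CCGGAAG 91 bases before the start and a pyrimidine run of 10 bases over it, and the Rpl28 promoter has a run of 11 bases. None of the searched motifs lies within the 200 bases shown of Rps19, Rpl10 or Rpl10l. Rps19 has 3 annotated starts, and the window shown is that of the gene's outermost one.

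Ribosomal protein genes lay near origins less often than protein-coding genes at large, in every condition, and at shares close to those of other short genes. Within 1 kb of the gene, 18 of the 81 (22.2%) had an APH origin, against 47.9% of all protein-coding genes and 24.8% of those of at most 10 kb. A CDC6 origin lay near 30 (37.0%), against 53.3% of all and 30.3% of short genes. A WT origin lay near 19 (23.5%), against 43.5% of all and 22.4% of short genes. Each condition had 1 list, so these counts have no replicate error and the differences between lists were not tested.

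**Figure D1:**
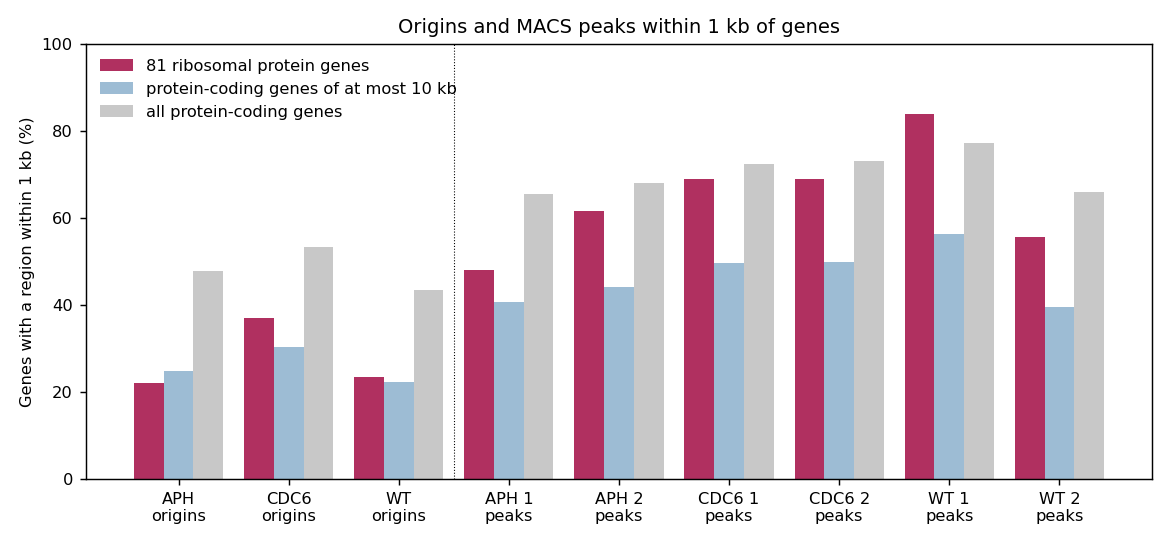
Share of genes (y axis, percent) with a region within 1 kb, for the 3 origin lists and the MACS peaks of the 6 libraries; bars are the 81 ribosomal protein genes, protein-coding genes of at most 10 kb, and all protein-coding genes. The ribosomal protein genes sit below all genes in each list and library except WT 1, where 84.0% had a peak, against 77.2% of all genes.

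MACS peaks, the less strict of the deposited calls, were found near more of these genes. A peak lay within 1 kb of 39 genes (48.1%) in APH 1 and 50 (61.7%) in APH 2, against 65.6% and 68.0% of all genes. In CDC6 1 and CDC6 2 the count was 56 (69.1%) each, against 72.5% and 73.1% of all genes. WT 1 had peaks near 68 (84.0%) and WT 2 near 45 (55.6%), against 77.2% and 66.0% of all genes. Among genes of at most 10 kb the shares were 40.7%, 44.2%, 49.7%, 49.9%, 56.3% and 39.5% in the same order of libraries, all below those of the ribosomal protein genes.

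The counts of genes with a peak lay further apart in the untreated libraries than in either stress condition. In WT 1 but not WT 2, 23 ribosomal protein genes had a peak (28.4%), against 14.3% of all genes and 19.7% of short genes, and the reverse held for 0 (3.07% of all and 2.91% of short genes). With the lists cut to the 50000 strongest peaks each, 31 and 44 genes had a peak in APH (57.6% and 62.4% of all genes), 50 and 42 in CDC6 (66.7% and 63.9%), and 56 and 36 in WT (68.2% and 56.4%). Among short genes these shares were 33.5% and 38.9% in APH, 44.3% and 40.7% in CDC6, and 45.5% and 31.1% in WT. WT 1 differs from WT 2 in cells, medium and number of peaks, and the part of each in this gap was not tested.

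Peaks near ribosomal protein genes ranked lower within their libraries than peaks near other genes. The strongest peak within 1 kb, ranked by its q value among all peaks of its library, had a median percentile over the genes with a peak of 58.1 in APH 1, 68.3 in APH 2, 77.8 in CDC6 1, 73.9 in CDC6 2, 78.2 in WT 1 and 66.6 in WT 2. Over all genes with a peak the medians were 81.7 to 88.5, and over short genes 73.8 to 82.0. Within the ribosomal protein genes, the authors' fold enrichment over the control of that strongest peak spanned 2.00 (APH 2) to 6.51 (CDC6 2).

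A peak was often present where the origin list had none. Peaks in both libraries of a condition lay near 37 genes for APH, 52 for CDC6 and 45 for WT, against 62.9%, 69.2% and 63.0% of all and 38.2%, 45.9% and 36.6% of short genes. Of the 37 with APH peaks, 18 (48.6%) had an APH origin, against 76.2% of all and 64.9% of short genes with such peaks. For CDC6 the count was 30 of 52 (57.7%), against 77.0% of all and 66.0% of short genes. For WT it was 19 of 45 (42.2%), against 69.1% of all and 61.2% of short genes. Among the 33 genes with a peak in all 6 libraries (55.8% of all and 30.9% of short genes had this), 28 had an origin in at least 1 list, and the other 5 were Rps25, Rps15, Rpl41, Rpl38 and Rpl36. No gene with peaks in fewer than 4 libraries had an origin in any list. Over all protein-coding genes, an origin also went with peaks in both libraries of its condition. This held for 10364 of 10366 genes with an APH origin, all 11524 with a CDC6 origin and 9408 of 9410 with a WT origin. The lack of origins at genes with few peaks thus largely follows from how the lists nest. Whether these counts by number of libraries differ from those of other genes was not tested.

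**Figure D2:**
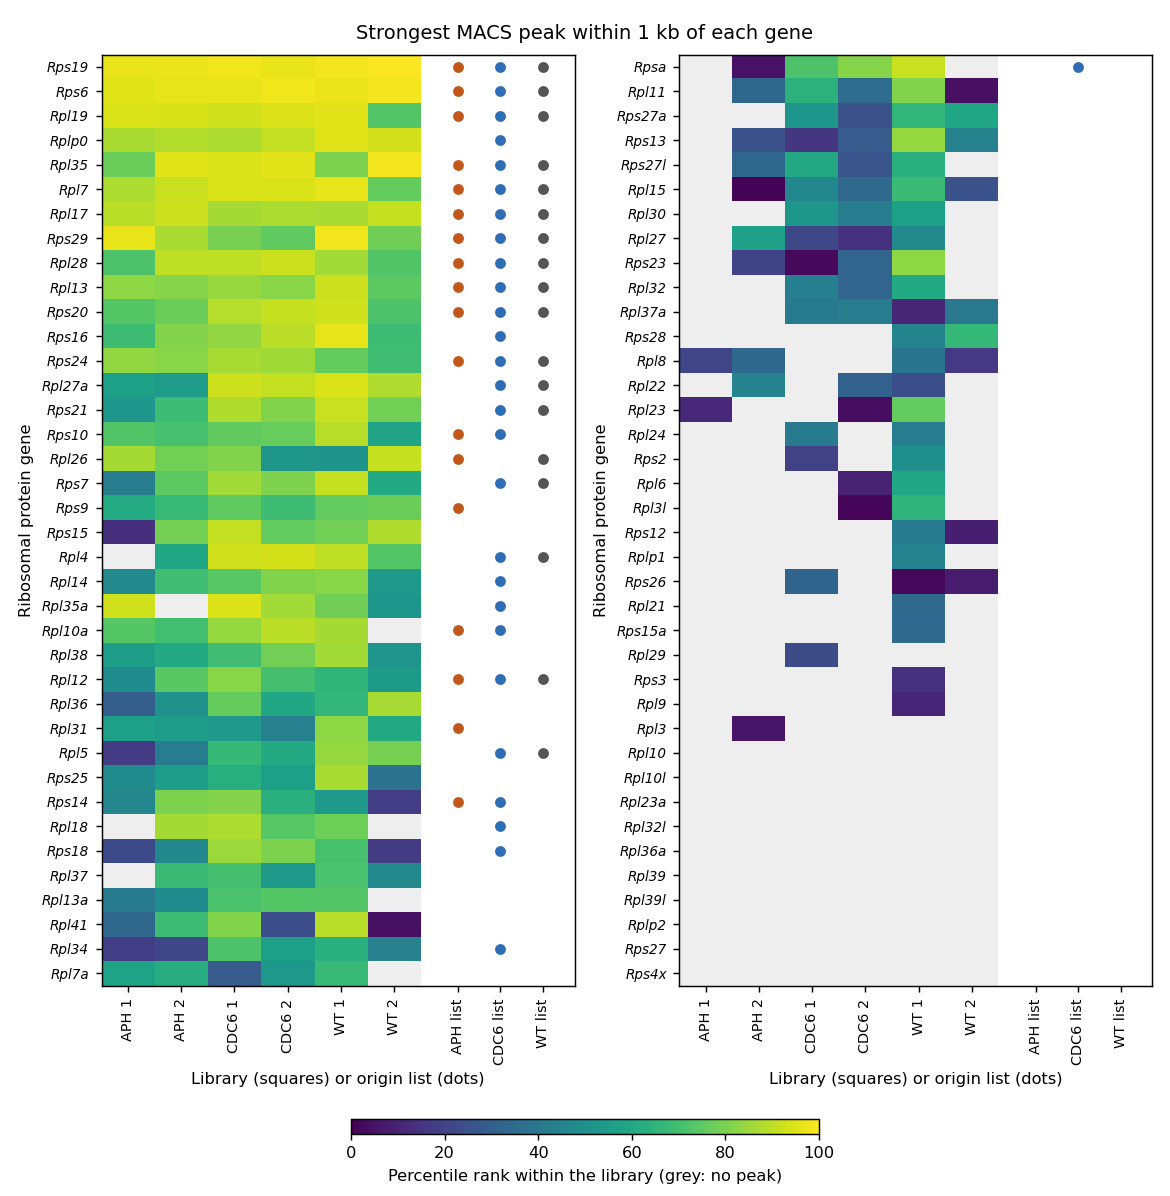
Percentile rank, within each library, of the strongest MACS peak within 1 kb of 76 of the 81 genes (colour; grey, no peak), with genes ordered by the mean rank over the 6 libraries, and dots where the APH, CDC6 or WT list has an origin. Rps19 and Rps6 are near the top in every library, the dots crowd into the upper rows, and 10 genes at the lower right have no peak at all.

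Origins in all 3 lists were found at 12 ribosomal protein genes, against 37.5% of all and 18.4% of short genes. They were Rps19, Rps6, Rps20, Rps24 and Rps29 of the small subunit and Rpl19, Rpl35, Rpl7, Rpl17, Rpl28, Rpl13 and Rpl12 of the large subunit. They made up 12 of the 18 genes with an APH origin, 12 of the 30 with a CDC6 origin and 12 of the 19 with a WT origin.

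Rps19, a small-subunit protein whose human counterpart is often mutated in Diamond-Blackfan anaemia, had the highest mean rank. Its strongest peak stood at the 96.5 and 97.1 percentiles in APH 1 and APH 2, at 97.8 and 96.8 in CDC6 1 and CDC6 2, and at 98.1 and 99.3 in WT 1 and WT 2. The APH origin at chr7:24883493-24885614 was 2122 bp wide, with its midpoint 38.5 bp before the start site. The CDC6 and WT origins there were 1913 and 1996 bp wide and covered the same start. All 3 lists thus placed a broad origin over the Rps19 promoter printed above.

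Rps6, the small-subunit protein that S6 kinases phosphorylate, followed. Its strongest peak had a percentile of 95.0 and 96.4 in APH, 96.4 and 98.0 in CDC6, and 97.2 and 98.4 in WT. Origins of 1286 bp (APH), 1288 bp (CDC6) and 1375 bp (WT) covered its start, the APH origin at chr4:86856401-86857686. Rps29, a small-subunit protein encoded by a gene of 1465 bp, had percentiles of 96.8 and 87.4 in APH, 79.3 and 75.6 in CDC6, and 98.0 and 78.5 in WT. Both genes had an origin in every list, but the ranks of Rps29 varied more from library to library.

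Among the large-subunit genes, Rpl19 had 1 APH, 2 CDC6 and 2 WT origins. Origins of all 3 lists lay at its upstream end, where Cacnb1, a calcium channel subunit gene, is also within 1 kb, and a second CDC6 and WT origin covered an annotated start further in. Rpl35, whose protein sits at the exit of the peptide tunnel, had percentiles of 77.5 and 95.2 in APH, 94.4 and 95.7 in CDC6, and 80.3 and 98.1 in WT. Its CDC6 origin (1526 bp) covered the start, and its APH (842 bp) and WT (810 bp) origins began 78 and 120 bp inside the gene. The Rpl7 origins lay outside the gene, 417 to 459 bp from its nearer end and within 1 kb of Rdh10, which encodes a retinol dehydrogenase. An origin within 1 kb was therefore not always at the ribosomal protein gene's own start. Rpl28 had its start covered in all lists, by origins of 724 bp (APH), 717 bp (CDC6) and 541 bp (WT). Rpl17 had percentiles of 89.8 and 92.4 in APH, 86.5 and 87.8 in CDC6, and 87.4 and 91.4 in WT, the narrowest spread after Rps6 and Rps19 among the 8 highest ranked of these genes.

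Most of the genes on which the lists differed had an origin in the CDC6 list. An origin in the CDC6 list alone lay near 9 genes (11.1%), against 6.63% of all and 6.21% of short genes. Among them were Rplp0, Rps16, Rpl14, Rpl35a, Rpl18, Rps18, Rpl34 and Rpsa. An origin in the CDC6 and WT lists, but not APH, lay near 6 (7.41%; 2.99% of all and 2.11% of short genes), an origin in the APH and CDC6 lists, but not WT, near 3 (3.70%; 6.15% of all and 3.59% of short), and an origin in the APH and WT lists near 1 (1.23%; 1.51% of all and 0.878% of short). APH alone had origins near 2 genes (2.47%; 2.76% of all and 1.98% of short), WT alone near 0 (1.50% of all and 1.03% of short), and 48 (59.3%) had none, against 40.9% of all and 65.8% of short genes.

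Genes that one list held and another lacked mostly had peaks in the libraries of the condition whose list lacked them. Of the 12 genes with a CDC6 but no WT origin, all 12 also had a MACS peak in library WT 1, as did 9 in WT 2, against 95.4% and 77.7% of all genes of that kind. Of the 5 genes with an APH but no WT origin, WT 1 peaks were present at 5 and WT 2 peaks at 4, against 93.5% and 84.1% of all such genes. The 6 genes with a WT but no APH origin all had a peak in APH 2, and 5 of them in APH 1, against 88.5% and 81% of all such genes. Protein-coding genes at large thus showed the same pattern.

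Rplp0, which forms the base of the ribosomal stalk, ranked highest among the genes with an origin in the CDC6 list alone. Each library had 2 peaks within 1 kb of it, and the percentile is that of the stronger. Its strongest peak had percentiles of 87.3 and 88.4 in APH, 87.5 and 90.9 in CDC6, and 95.7 and 93.3 in WT. Only the CDC6 list had an origin within 1 kb, 421 bp wide at chr5:115559365-115559785 and over the start site, while the nearest APH and WT origins lay 1222 and 1232 bp away. A peak was present at this CDC6 origin in all 6 libraries, but whether it was the stronger of the 2 was not tested. Rps16 and Rpl14, a small-subunit and a large-subunit protein, likewise had peaks in all 6 libraries and an origin in the CDC6 list alone. Rps16 had percentiles of 69.0 and 81.6 in APH, 83.9 and 89.7 in CDC6, and 96.4 and 68.9 in WT. For Rpl14 they were 47.8 and 69.2 in APH, 74.1 and 80.9 in CDC6, and 82.1 and 53.7 in WT. For both genes the ranges of CDC6 and WT overlapped.

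The genes in both stress lists but not WT were Rps10, which is ubiquitinated when ribosomes collide, Rpl10a of the large subunit, and Rps14, whose human counterpart is lost in the 5q- syndrome. The APH and CDC6 origins of Rps10 were 647 and 696 bp wide and covered its start. Its peaks had percentiles of 72.8 and 71.0 in APH, 75.7 and 76.9 in CDC6, and 89.2 and 58.4 in WT, so that the stress libraries lay between the WT ones. Rps14 had percentiles of 46.2 and 80.1 in APH, 81.4 and 63.6 in CDC6, and 54.1 and 18.2 in WT. Rpl10a had 73.8 and 69.7 in APH, 84.2 and 89.6 in CDC6, and 86.7 in WT 1, with no peak in WT 2.

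Rps9 and Rpl31 had origins in the APH list alone, although their peaks were present in all libraries. The Rps9 origin (512 bp) lay 35 bp beyond the gene's downstream end, and the Rpl31 origin (466 bp) covered the start site. Rps9 had percentiles of 61.5 and 67.6 in APH, 75.4 and 68.9 in CDC6, and 76.0 and 77.5 in WT. Its rank was thus lower in APH than in WT, although only the APH list held the origin. The WT list held origins at Rpl27a and Rps21, among others, that the APH list lacked, and at Rpl26, a protein known to bind p53 mRNA, that the CDC6 list lacked. Rpl27a had percentiles of 56.9 and 54.9 in APH, 92.2 and 91.0 in CDC6, and 94.2 and 88.1 in WT. Here both APH libraries stood below the other 4. Rpl5, which binds Mdm2 when ribosome assembly is disturbed, was the same in kind, with 17.6 and 41.8 in APH, 67.1 and 61.2 in CDC6, and 84.2 and 79.5 in WT. Ranks from lists of different lengths do not measure a change, and these values are given as descriptions.

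Small-subunit genes had origins at a higher share than large-subunit genes in each list, with no test of the difference. Of the 31 small-subunit genes, 8 had an APH (25.8%), 14 a CDC6 (45.2%) and 8 a WT origin (25.8%). Of the 50 large-subunit genes, the counts were 10 (20%), 16 (32.0%) and 11 (22.0%) in that order. MACS peaks lay near 67.7% of small-subunit and 48.0% of large-subunit genes in WT 2, and near 67.7% and 70.0% in CDC6 2, where the order was the reverse. Of 19 ribosomal protein genes mutated in human Diamond-Blackfan anaemia, 7 had an APH (36.8%), 10 a CDC6 (52.6%) and 7 a WT origin (36.8%), with a median length of 3737 bp. These shares lie below those of all genes (47.9%, 53.3% and 43.5%) and above those of short genes (24.8%, 30.3% and 22.4%). Rps19, Rps24, Rps29 and Rpl35 were those with an origin in all 3 lists. Rpl11, the partner of Rpl5 in binding Mdm2, had no origin in any list, and its peaks were absent in APH 1 and at the 33.6 percentile in APH 2, 64.4 and 35.8 in CDC6, and 81.1 and 4.0 in WT.

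No MACS peak was found within 1 kb of 11 genes (13.6%) in any library, against 16.7% of all and 36.2% of short genes. Among them were Rps27 and Rps4x of the small subunit and Rplp2, Rpl23a, Rpl10, Rpl10l, Rpl32l, Rpl36a, Rpl39 and Rpl39l of the large subunit. All 4 X-linked members, Rpl10, Rpl36a, Rpl39 and Rps4x, were among them, although they encode ubiquitous ribosomal proteins. Of the 966 X-linked protein-coding genes, 39.1% had no peak in any library, and 60.9% of those of at most 10 kb. Their nearest origins were at least 27605 bp away in the APH list (Rpl39), 35386 bp in the CDC6 list (Rpl36a) and 6158 bp in the WT list (Rps4x). The X chromosome held 1.75% (WT 1) to 4.15% (APH 1) of peaks.

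Of 4 paralogues with tissue-restricted or alternative use, 2 had no peak in any library, against 16.7% of all and 36.2% of short genes. Rpl10l and Rpl39l, which are expressed mainly in the testis, had none. Rpl3l, the heart and skeletal muscle form of Rpl3, had a peak at the 1.6 percentile in CDC6 2 and at 64.9 in WT 1, and none in the other 4 libraries. Rps27l, a p53 target, had none in APH 1, percentiles of 33.7 in APH 2, 60.2 and 26.3 in CDC6, and 63.5 in WT 1, and none in WT 2. These 4 genes had no origin in any list. Rpl10 and its autosomal copy Rpl10l thus both lacked peaks, as did Rpl39 and Rpl39l.

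Origins near ribosomal protein genes lay mainly over their start sites. The annotation used gives strand and start for 61 of the genes. Near them were 13 APH, 24 CDC6 and 17 WT origins, of which 8, 19 and 10 covered a start site. Counted by gene, 8 of the 61 (13.1%) had a start covered by an APH origin, against 27.6% of all and 13.9% of short genes. A CDC6 origin covered the start of 19 (31.1%), against 34.4% of all and 18.4% of short genes, and a WT origin that of 10 (16.4%), against 26.0% of all and 12.5% of short genes. The CDC6 and WT shares thus lay above those of short genes and the APH share below, with no test of these differences.

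**Figure D3:**
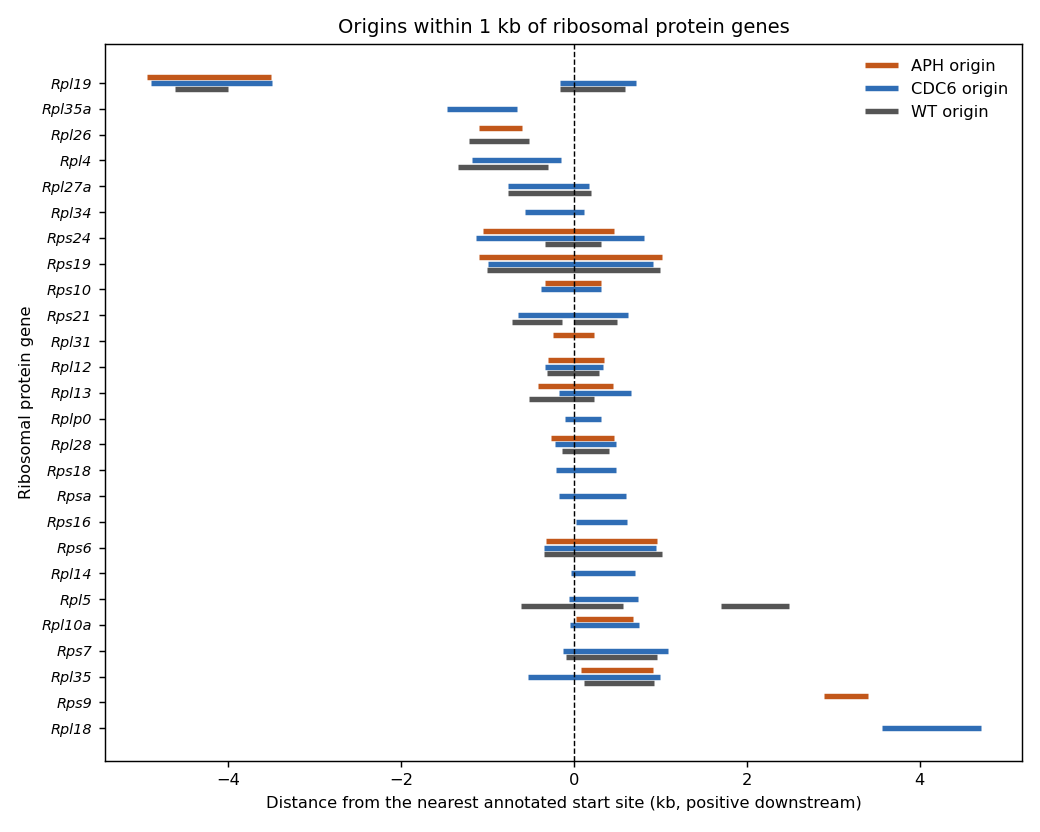
Origins within 1 kb of ribosomal protein genes with known strand, as bars from the origin's first to its last base in kb from the nearest annotated start (x axis, positive downstream), coloured by list. Most bars cross the dashed line at 0. Those of Rps9, Rpl18, Rpl26, Rpl35a and Rpl4, the distal origins of Rpl19 and the downstream WT origin of Rpl5 lie apart from it. Bars of Rps21 (WT), Rpl35 (APH and WT), Rps16 (CDC6) and Rpl10a (APH) come within 137 bp of the line without crossing it.

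The strongest MACS peak covered a start site at 17 of 30 genes (56.7%) in APH 1, 23 of 39 (59.0%) in APH 2, 31 of 43 (72.1%) in CDC6 1, 36 of 44 (81.8%) in CDC6 2, 46 of 52 (88.5%) in WT 1 and 25 of 35 (71.4%) in WT 2. Over all genes with a peak and a known start these shares were 49.9%, 54.2%, 58.5%, 56.6%, 62.8% and 47.8% in the same order of libraries, and over short genes 57.0%, 60.0%, 65.1%, 64.0%, 68.0% and 55.4%. The ribosomal protein genes lay above short genes in the CDC6 and WT libraries and slightly below them in both APH libraries, with no test of the difference. Origins near ribosomal protein genes had a median width of 828.5 bp (APH), 837.5 bp (CDC6) and 770.5 bp (WT), against 670, 737 and 720 bp over the whole lists. A wider origin reaches a gene window more easily, and whether origins near other genes are as wide was not tested. None lay within 1 kb of a second ribosomal protein gene. Another protein-coding gene lay within 1 kb of 3 APH, 8 CDC6 and 5 WT origins, among them Fam83e at Rpl18, Cables2 at Rps21 and Iqcg at Rpl35a.

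The 1 kb limit split few genes. In the APH list the farthest origin inside it lay 604 bp from Rpl26, and the nearest outside it 1206 bp from Rpl18. In the WT list these were 523 bp (Rpl26) and 1232 bp (Rplp0), and in the CDC6 list the farthest origin inside the limit lay 800 bp from Rpl18. Genes beyond the limit had their nearest origin at a median of 22.7 kb (APH), 19.5 kb (CDC6) and 22.2 kb (WT).

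The promoters of the 61 genes, 300 bases each from 250 before to 50 after the start (RefSeq, GRCm38.p6), were rich in CpG for short genes. Their median ratio of observed to expected CpG was 0.86, against 0.31 for genes of at most 10 kb and 0.57 for all 17273 genes with a promoter. The median GC content was 56.7%, against 51.7% for short genes and 56.7% for all. Members with an origin in any list (26) had a median GC of 60.0% and a CpG ratio of 0.93, and those with none (35) had 54.3% and 0.79. Short genes differed in the same direction, with a CpG ratio of 0.70 for those with an origin and 0.20 for those without. The ribosomal protein genes without an origin therefore had a higher median CpG ratio than short genes with one. Their median GC content was lower, at 54.3% against 60.5%.

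The motif CCGGAAG, read on both strands, was present in 25 of the 61 promoters (41.0%), against 10.0% of short and 13.1% of all genes. A run of at least 5 pyrimidines over the start was present in 21 (34.4%), against 9.04% of short and 10.3% of all genes. AAGATGGC, a core of YY1 sites, was present in 5 (8.20%), against 2.77% and 3.60%, and TATAAA in 7 (11.5%), against 22.3% and 14.9%. The G-quadruplex pattern (4 runs of at least 3 G, with loops of 1 to 7 bases, on either strand), a feature often reported at mammalian origins, was present in 7 (11.5%), against 15.8% of short and 24.4% of all genes. It was found in 5 of the 26 with an origin (19.2%) and 2 of the 35 without (5.71%), against 29.6% and 8.76% of short genes with and without one. The motifs may overlap, and a match describes the sequence only.

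Ribosomal protein pseudogenes, processed copies that mostly lack the promoter of the parent gene, had fewer origins nearby than pseudogenes at large. Of 317, 6 (1.89%) had an APH origin within 1 kb, 8 (2.52%) a CDC6 origin and 5 (1.58%) a WT origin, against 5.34%, 5.46% and 3.38% of all 10328 pseudogenes. MACS peaks lay near 8.52% of them in APH 1 and near up to 19.6% in WT 1, against 14.9% and 19.9% of all pseudogenes. Reads shared by near-identical copies may fall to either copy, and their treatment is not stated in the labels. Of the 81 genes themselves, 29 hold a small nucleolar RNA (snoRNA) gene within their bounds. Among these hosts 4 (13.8%) had an APH, 10 (34.5%) a CDC6 and 8 (27.6%) a WT origin, against 67.5%, 73.9% and 65.1% of all snoRNA hosts and 22.2%, 42.9% and 30.2% of the 63 short ones. Of the 52 other members 14 (26.9%), 20 (38.5%) and 11 (21.2%) did, against 47.6%, 52.9% and 43.1% of all and 24.8%, 30.2% and 22.3% of short genes that host none.

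The conditions were compared by the bases that MACS peaks covered within each gene and 1 kb on each side, scaled to the mean total over the libraries and fitted with limma as log2(scaled bases + 200). Covered bases measure how broadly peaks were called, not how often an origin fired. The filter (a mean of at least 100 covered bases) kept 17707 genes, 69 of the 81 among them; the 11 genes with no peak and Rps3 were left out. A gene with no covered base in a group has a log2 mean of 7.64, the pseudocount itself, so its difference is a value on this scale and not a fold. All log2 differences below are on it.

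With all 6 libraries and this filter, no gene passed an adjusted p under 0.05 by limma in any of the comparisons. At an unadjusted p under 0.05 the counts were 1476 genes (8.34%) for APH minus WT, 1116 (6.30%) for CDC6 minus WT and 2085 (11.8%) for APH minus CDC6. The ribosomal protein genes counted 8, 4 and 11 of 69 in that order. Without the filter, limma called 71 genes (0.328%) for APH minus WT, 110 (0.509%) for CDC6 minus WT and 76 (0.351%) for APH minus CDC6, of which Rps12 was the ribosomal protein gene, called in both comparisons with WT. The APH and CDC6 comparisons with WT share both WT libraries. Rps12 had no covered base in any APH or CDC6 library, so it entered both comparisons through WT alone. Without the filter the fit also holds the genes at or near 0, and its estimate of the spread draws on them as well.

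For APH against WT, 45 of the 69 genes had fewer covered bases in APH and 24 more (34.8%, against 45.7% of all genes tested). The median log2 difference was -0.34, against -0.05 over all genes tested. Among the 45 were Rps12, Rps28, Rplp1, Rpl9, Rpl21 and Rps15a, which were covered in WT alone and could only come out lower. Rpl3, covered in APH 2 alone, could only come out higher. These genes also enter the median. Rps12 and Rps28 also count among the genes with both APH libraries below both WT libraries. Both APH libraries lay below both WT libraries at 14 genes (20.3%; 15.9% of all genes tested and 9.87% of short ones) and above them at 7 (10.1%; 14.6% of all and 15.9% of short). Rpl35a, a large-subunit protein mutated in human Diamond-Blackfan anaemia, had 30 and 0 scaled bases in APH 1 and APH 2, against 1275 and 2350 in WT 1 and WT 2. The groups did not overlap, and the log2 difference was -3.18 ± 0.60 (SE; limma adjusted p = 0.341), but it was -0.63 with a window of 5 kb. Its peak in APH 1 stood at the 92.7 percentile, but only 26 unscaled bases of it reached into the window. Rps26, which lines the mRNA exit channel, had 0 and 0 in APH, against 1012 and 1422 in WT, a difference of -2.81 ± 0.64 (SE; limma adjusted p = 0.36). Rps27a, made as a fusion with ubiquitin, had 0 and 0 in APH, against 780 and 913 in WT, a difference of -2.38 ± 0.58 (SE; limma adjusted p = 0.371). These 3 genes had WT values beyond the APH ones in both libraries without passing the test across all genes. The strongest WT peaks of Rps26 stood only at the 2.1 and 8.0 percentiles.

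In the other direction, Rps19 had 6563 and 6562 scaled bases in APH, against 2991 and 3757 in WT, with a log2 difference of 0.93 ± 0.35 (SE; limma adjusted p = 0.573). Rps10 had 3124 and 1882 in APH, against 1266 and 981 in WT (1.00 ± 0.43; limma adjusted p = 0.635). In both genes the groups did not overlap, and both APH libraries lay above both WT libraries.

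Leaving out either WT library changed how many genes passed. Without WT 1, which came from the other cells, the APH minus WT difference was -2.92 for Rps26 and -2.38 for Rps27a. Without WT 2 it was -2.64 and -2.33. Both genes had no covered base in APH, so only a lower value in APH was possible. Rps12, Rps28, Rplp1, Rpl9, Rpl21 and Rps15a had no covered base in any APH or CDC6 library and passed the filter through WT alone. In these fits the lone WT library is taken to vary like the other groups. Both fits use the same APH and CDC6 libraries, so a gene that passed in both has no independent support.

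For CDC6 against WT the 69 genes leaned the other way by a little, as all genes did. More covered bases in CDC6 were found at 40 (58%, against 56.8% of all genes tested) and fewer at 28, with a median of 0.09, against 0.11 over all genes tested. The 28 again include Rps12, Rps28, Rplp1, Rpl9, Rpl21 and Rps15a, which were covered in WT alone and could only come out lower. Rpl29, covered in CDC6 1 alone, could only come out higher. Both CDC6 libraries lay above both WT libraries at 13 genes (18.8%; 20.9% of all and 27.6% of short genes tested) and below them at 8 (11.6%; 11.8% of all and 5.56% of short). Rps27l had 3094 and 2892 scaled bases in CDC6, against 1748 and 0 in WT (2.35 ± 1.23; limma adjusted p = 0.751). Rpsa, a small-subunit protein also described as a laminin receptor, had 1772 and 1718 in CDC6, against 1000 and 0 in WT (1.99 ± 1.15; limma adjusted p = 0.751). Rpl7a had 2488 and 2097 in CDC6, against 1965 and 0 in WT (1.92 ± 1.13; limma adjusted p = 0.751). The size of each of these differences rested on WT 2, which had no covered base. With the 50000 strongest peaks of each library, the difference was 0.28 for Rps27l and 0.01 for Rpl7a.

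Lower in CDC6 than in WT was Rpl8, of the large subunit, with 0 and 0 in CDC6, against 1286 and 820 in WT (-2.62 ± 0.58; limma adjusted p = 0.661). With the 50000 strongest peaks the Rpl8 difference was 0. Rps26 had 65 and 0 in CDC6, against 1012 and 1422 in WT (-2.61 ± 0.64; limma adjusted p = 0.661). Rps12 of the small subunit had 0 and 0 in CDC6, against 761 and 894 in WT (-2.36 ± 0.63; limma adjusted p = 0.661, and 0.00362 without the filter on low values). The Rps12 difference was the same with and without the filter. Rps26 and Rps12 were also at or near 0 in APH, so their coverage was confined to the WT libraries but for the 65 scaled bases of Rps26 in CDC6 1. In WT 1 and WT 2 their strongest peaks stood at the 2.1 and 8.0 percentiles for Rps26 and 40.9 and 8.4 for Rps12. With peaks of q at most 0.01 the Rps12 difference was -1.12, and Rps26 did not pass the filter. Neither gene passed it with the 50000 strongest peaks. Without WT 1 the CDC6 minus WT difference was -2.26 for Rpl8, -2.73 for Rps26 and -2.36 for Rps12. Without WT 2 it was -2.93, -2.43 and -2.3 in that order. Each of these fits rests on 1 WT library, and these genes were at or near 0 in both CDC6 libraries.

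**Figure D4:**
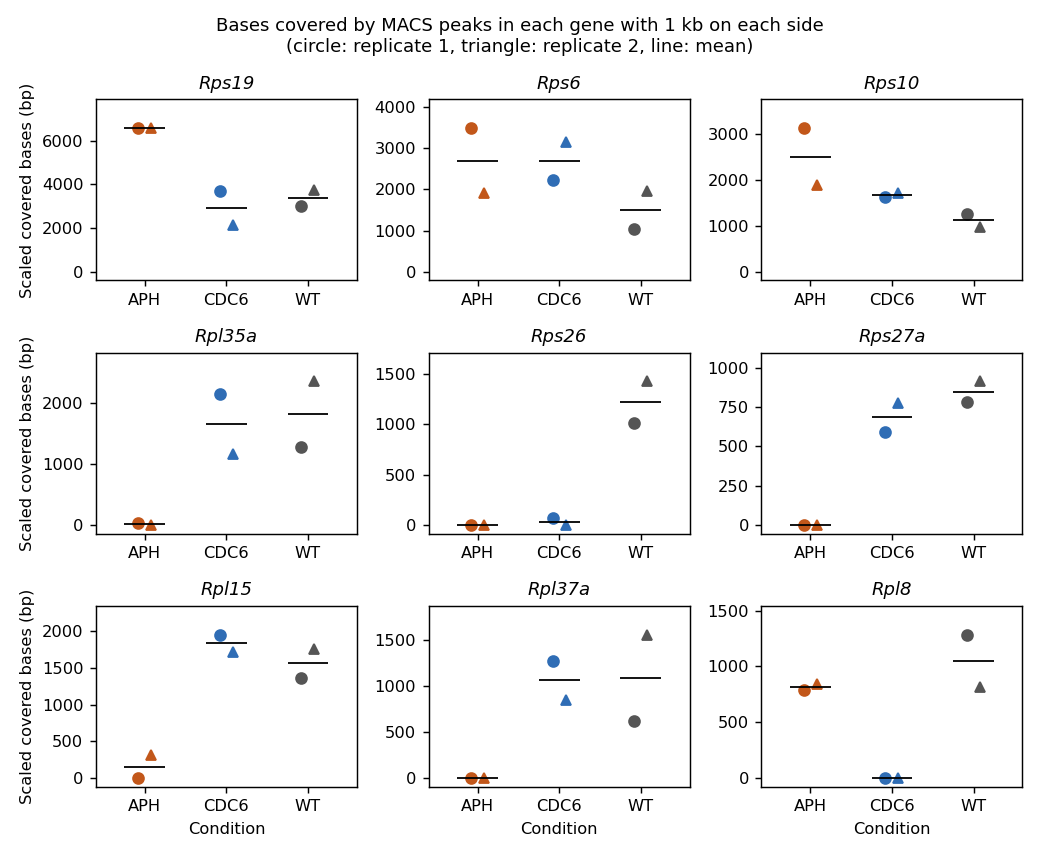
Scaled bases covered by MACS peaks (y axis, bp, each panel with its own scale from near 0) in 9 genes with 1 kb on each side; points are libraries of APH, CDC6 and WT, and lines their means. Rps19 is highest in APH, Rpl35a, Rps26, Rps27a, Rpl15 and Rpl37a are at or near 0 in APH, and Rpl8 is at 0 in CDC6.

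APH against CDC6 compares the stress conditions within the same cells. Fewer covered bases in APH were found at 45 of the 69 genes and more at 18 (26.1%, against 36.8% of all genes tested), with a median of -0.25, against -0.16 over all genes tested. Both APH libraries lay below both CDC6 libraries at 23 genes (33.3%), the same share as among all genes tested (33.3%; 31.7% of short), and above them at 11 (15.9%; 20.5% of all and 16.6% of short). Rpl35a had 30 and 0 scaled bases in APH, against 2137 and 1168 in CDC6 (-3.06 ± 0.60; limma adjusted p = 0.276). That of Rpl35a was -0.65 with a window of 5 kb. Rpl15 of the large subunit had 0 and 311 in APH, against 1953 and 1720 in CDC6 (-2.67 ± 0.64; limma adjusted p = 0.29). Rpl37a had 0 and 0 in APH, against 1278 and 852 in CDC6 (-2.64 ± 0.66; limma adjusted p = 0.302). At these 3 genes the WT libraries were covered as well, by 620 to 2350 scaled bases.

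Higher in APH than in CDC6 was Rpl8, with 786 and 846 in APH, against 0 and 0 in CDC6 (2.34 ± 0.58; limma adjusted p = 0.302). These bases lay in the flanks, and over the gene body alone the difference was 0. Rps19 had 6563 and 6562 in APH, against 3709 and 2132 in CDC6 (1.16 ± 0.35; limma adjusted p = 0.353). Rpl41, the smallest ribosomal protein, had 2156 and 3493 in APH, against 1303 and 877 in CDC6 (1.21 ± 0.45; limma adjusted p = 0.404), which was 0.14 with a window of 5 kb. The strongest peak of Rps19 ranked alike in all libraries, while the covered stretch was broader in both APH libraries. Without WT 1, limma called 1182 genes (6.93%) for APH minus CDC6, and without WT 2 it called 1117 (6.34%); the cause was not tested. In these fits the APH minus CDC6 difference was 2.25 and 2.38 for Rpl8, and -2.55 and -2.68 for Rpl37a. Both fits use the same APH and CDC6 libraries, so they are not independent of each other. With the APH and CDC6 libraries alone, a setting chosen after seeing the data, 0 of 16874 genes were called by limma, with 4314 at an unadjusted p under 0.05.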

How the data were processed

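Short nascent strands from 6 mESC libraries (2 APH, 2 CDC6, 2 WT) were used, with a list of origins per condition and a list of MACS peaks per library; no list of the seventh sample, Input, was used here. The submitters' processing notes name MACS2 2.0.10, BWA 0.7.10, bedtools 2.23.0, Picard 1.107, SAMtools 0.1.19 and FastQC, and the builds GRCm38, mm10 and mm9. Positions were read as mm10 (GRCm38). The deposited MACS lists give, per peak, a fold enrichment over the control and −log10 p-value and −log10 q-value columns, with the largest q values between 0.096 and 0.099 and peaks of at least 400 bp. The deposited origin lists give 2 scores per origin whose meaning the files do not state, and they were used for positions alone. No read counts were used, so the sequencing depth is unknown, and 2 libraries per condition limit the precision.

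Genes, strands, starts and promoters came from RefSeq GRCm38.p6. A region counted for a gene when at least 1 bp of it lay within 1 kb of the gene. Percentile ranks order the peaks of a library by q value. Covered bases per gene with 1 kb on each side were scaled to the mean library total (factors 0.727 to 1.178), and log2(scaled bases + 200) was fitted over all protein-coding genes with a mean of at least 100 covered bases with limma 3.58.1 (lmFit, eBayes with trend; R 4.3.3, Python 3.11.15), with 1 term per condition, without a replicate block and with Benjamini-Hochberg adjustment over all genes tested. The limma step was tested on simulated data. The genes, lists and tests were chosen with earlier results of these data known. Named genes were the highest ranked by mean percentile in each class of lists (up to 8, 5 and 4). The first 5 without a peak in alphabetical order and the X-linked members were named too. So were the paralogues with restricted or alternative use, and the 3 smallest limma p per comparison and direction. Rps15, Rps25, Rpl36, Rpl38, Rpl5, Rpl11 and the members listed beside counts were named after their values were seen. A few members are counted but not reported here by name. Alternatives changed the window, the overlap, peak thresholds, the source of the lists, the pseudocount, filter and scaling, and left out each library.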

Additional observations from a re-analysis of the deposited data

How the results depend on the processing

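Origin counts near the 81 genes moved by over 1.5 times with a 5 kb window, to 31 for APH and 31 for WT (41 for CDC6), and with lists rebuilt from MACS peaks that overlap in both libraries, to 42 for APH, 51 for CDC6 and 46 for WT. No shares over all or short genes are given at these settings, so whether the comparison with them still holds there was not tested. With either library of a condition left out, the count of genes with a peak is that of the library kept. It cannot fall below the count for both libraries. It was 39 or 50 for APH (37 for both), 56 in either case for CDC6 (52 for both), and 45 or 68 for WT (45 for both). Across all genes limma called none in any comparison with all libraries and the filter. Without the filter it called 71 genes for APH minus WT, 110 for CDC6 minus WT and 76 for APH minus CDC6. With each library left out in turn the counts ranged from 0 to 2251 for APH minus WT, from 0 to 2174 for CDC6 minus WT and from 0 to 1182 for APH minus CDC6, and above 0 only without a WT library. With the replicate number as a block the counts were 0, 0 and 0 (1166, 767 and 1675 at an unadjusted p under 0.05). Deviations of same-numbered libraries correlated at -0.06 (APH and CDC6), -0.202 (APH and WT) and -0.0147 (CDC6 and WT). These values cannot show whether same-numbered libraries were prepared together, because WT 1 and WT 2 also differ in cells and medium. With the second lists as labelled, 4 log2 differences reversed: Rps10 to -0.79 and Rpl35a to 1.51 (APH minus WT), Rps27l to -1.16 (CDC6 minus WT) and Rpl35a to 1.7 (APH minus CDC6); those lists go against their labels, and with them the Rpl15 difference was 0 (APH minus CDC6). The other causes were not tested. Of the named members' other values, 258 kept direction and side of the threshold, 3 came to a difference of 0 (Rpl8 in 2 comparisons, and Rpl15) and 16 passed the threshold, all without a WT library except Rps12 for CDC6 minus WT without the filter. Differences against a group at 0 also move with the pseudocount: Rps26 (APH minus WT) was -4.64 with 50 bp and -1.77 with 500 bp. The Rps10 difference (APH minus WT) was 0.35 with the 50000 strongest peaks of each library.

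Peak lists hold only regions past a threshold, so a gene without a peak has no measured level. Differences in called regions between libraries include differences in depth, which is unknown. Strand was not given for 20 of the 81 genes.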

Other observations

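Genes with related work lay near origins more often than the ribosomal protein genes, and most of them are longer. Of 18 genes of ribosome assembly (median length 17560 bp), 11 had an APH, 13 a CDC6 and 12 a WT origin within 1 kb, and 10 had an origin in all 3 lists. Among these were Ncl (nucleolin), Fbl (fibrillarin, the methyltransferase of box C/D snoRNPs), Nop56, Ubtf and Polr1a, the largest subunit of RNA polymerase I. The share over all protein-coding genes was 47.9% for APH, 53.3% for CDC6 and 43.5% for WT. Of 13 other genes of translation whose mRNAs begin with a terminal oligopyrimidine tract (median length 11645 bp), 8 had an APH, 10 a CDC6 and 7 a WT origin. Eef1a1, Eef1d, Pabpc1, Tpt1, Npm1 and Eif4b had an origin in all 3 lists.

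The 78 mitochondrial ribosomal protein genes (median length 7690.5 bp), whose products build the ribosome of the organelle, had 24 with an APH (30.8%), 31 with a CDC6 (39.7%) and 27 with a WT origin (34.6%), and 20 had an origin in all 3 lists, among them Mrpl15, Mrpl41 and Mrps28. Among the 81 cytosolic genes 12 did. Of 8 cytosolic ribosomal protein genes that the symbols left out (among them Fau, Rack1, Rpl22l1, Rpl7l1, Rpl36al, Rps3a1 and Rps27rt), 1 had an APH, 2 a CDC6 and 1 a WT origin. Peaks lay near 3 and 5 of these in APH, 6 and 7 in CDC6, and 7 and 5 in WT. None of these differences between lists of genes was tested.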
